A study of Mus musculus with 2 samples.

Results

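The genes described here encode 10 ATPases of the SNF2 family other than Lsh, the family member that was knocked out in this study. They were taken from a list of named relatives (Smarca4, Smarca2, Smarca5, Smarca1, Smarcad1, Chd1, Chd4, Atrx, Ino80 and Rad54l), and all 10 were found among the 16579 genes that the array table named. RNA came from mouse embryonic fibroblasts (MEFs), connective tissue cells grown out of embryos. The Lsh+/+ group was a wild type culture and the Lsh-/- group a culture without a functional copy of Hells, the gene for Lsh; both were grown untreated in the same serum-containing medium, and each was hybridised to 1 Affymetrix Mouse Genome 430 2.0 array. The labels call the cultures cell lines and give no embryo age, strain or number of embryos, so that the genotypes are compared through a single culture each. The arrays were made to relate cytosine methylation that depends on Lsh to gene expression. No methylation values were analysed here.

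SNF2-type ATPases use ATP to pull on DNA and thereby slide, evict or rebuild nucleosomes, the spools of histone proteins that package the genome. Most act as the motor subunit of a larger complex: Smarca4 and Smarca2 drive the SWI/SNF (BAF) complexes, Smarca5 and Smarca1 the ISWI complexes, Chd4 the histone-deacetylating NuRD complex and Ino80 the complex of the same name. Lsh belongs to the same family and is needed for normal DNA methylation in mouse cells.

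The deposited values are log2 expression levels, so a difference of 1 is a 2-fold difference. Differences are Lsh-/- minus Lsh+/+, and 2-fold was the size used for counting. A gene was kept where at least 1 array reached the median of all rows of that array, 3.86 for Lsh+/+ and 3.88 for Lsh-/-, called the dimness limit here; it is not a detection limit. With 1 array for each genotype nothing measures the spread between cultures, so no difference below has an error or a test.

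Hells itself read 6.68 on the Lsh+/+ array and 5.22 on the Lsh-/- array, 2.75-fold lower and still above the limit in the knockout. Whether its probes lie in the removed part of the gene was not given in the sources used here. Of 12 fibroblast markers, 11 reached the limit on both arrays, with a summed level of 14.2 and 13.8, whereas Thy1, a fibroblast surface protein, read 1.93 and 1.87. Of the 11, 10 were lower in Lsh-/-, with a median difference of -0.66, and 3 were past 2-fold: the collagen gene Col1a2 (11.5 and 7.06) and the growth factor receptors Pdgfra (6.12 and 4.93) and Pdgfrb (7.10 and 5.95). Of 6 epithelial markers, 2 reached the limit in Lsh+/+ and 3 in Lsh-/- (summed level 7.82 and 10.8). Krt18 was at 2.77 and 8.92, Krt19 at 7.14 and 10.2, and Krt8 at 5.98 and 6.23, a difference of 0.24. Epcam, Cdh1 and Cldn4 were below the limit on both. Among the other markers only Kdr (5.64 and 7.45), of 4 endothelial ones, and Nes (4.37 and 4.41), of 4 neural ones, reached the limit, and none of 3 blood markers did. The gap between 3′ and 5′ control probe sets, which tracks how intact the RNA is, widened in Lsh-/- for Actb by 0.60 and for Gapdh by 0.70 and was narrower for the other 3 controls, changing by -0.24 (transferrin receptor), -0.35 (pyruvate carboxylase) and -0.59 (18S ribosomal RNA). The part of these marker and control shifts in the results below was not tested. In RNA from whole cultures, fewer cells of a type and less RNA per cell cannot be told apart.

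Among the 10 ATPases, Smarca1 was the only one past 2-fold, and it was lower in the knockout. The other 9 lay within 2-fold, from -0.51 for Smarca2 to 0.74 for Smarcad1. That makes 1 of 10 members, against 10.7% of all 9169 kept genes (982 genes, 426 higher and 556 lower) and 7.06% of the 8184 genes that were above the limit on both arrays (3.03% higher, 4.03% lower), as all 10 members were. This share is near the background and is not a result about the family. Differences above 0 were found for 7 members and below 0 for 3, with a median of 0.20, beside 0.01 over all kept genes, of which 50.5% were above 0. These directions are relative to the other genes on the arrays. RNA controls added to the hybridisation in fixed amounts read higher on the Lsh-/- array by a median of 0.44 (9 probe sets, 0.21 to 0.78). When that array was scaled to them, 2 members were above 0 and 8 below, their median was -0.23, the median of all kept genes was -0.43, and 168 genes were 2-fold higher and 1349 lower.

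**Figure D1:**
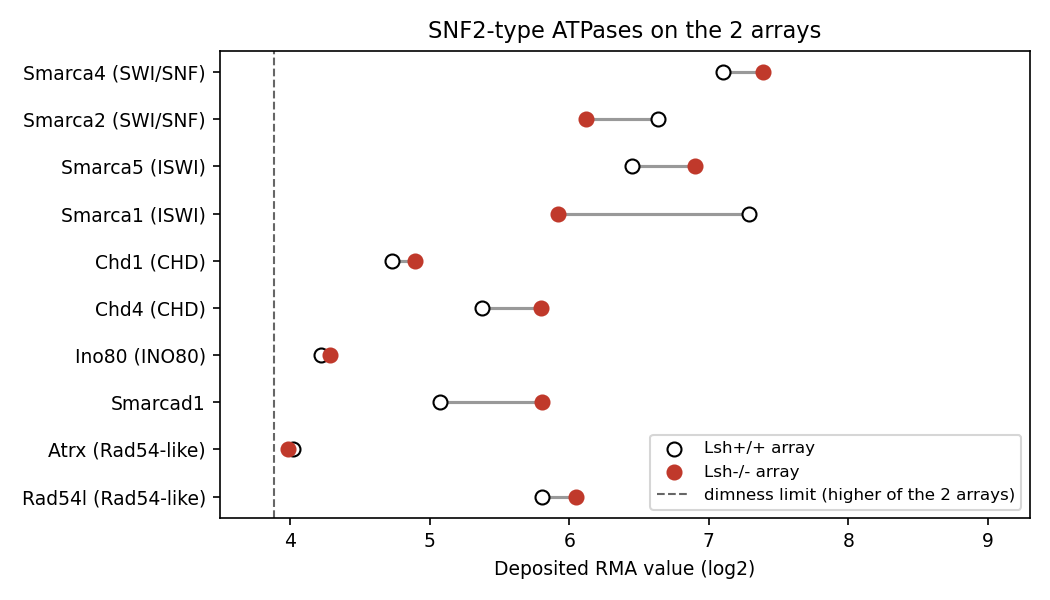
Deposited value (log2) of each of the 10 ATPases on the Lsh+/+ array (open circles) and the Lsh-/- array (filled circles), 1 array each, with the dimness limit as a dashed line. The longest line is that of Smarca1, from 7.29 down to 5.92, and Atrx and Ino80 lie near the limit.

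**Figure D2:**
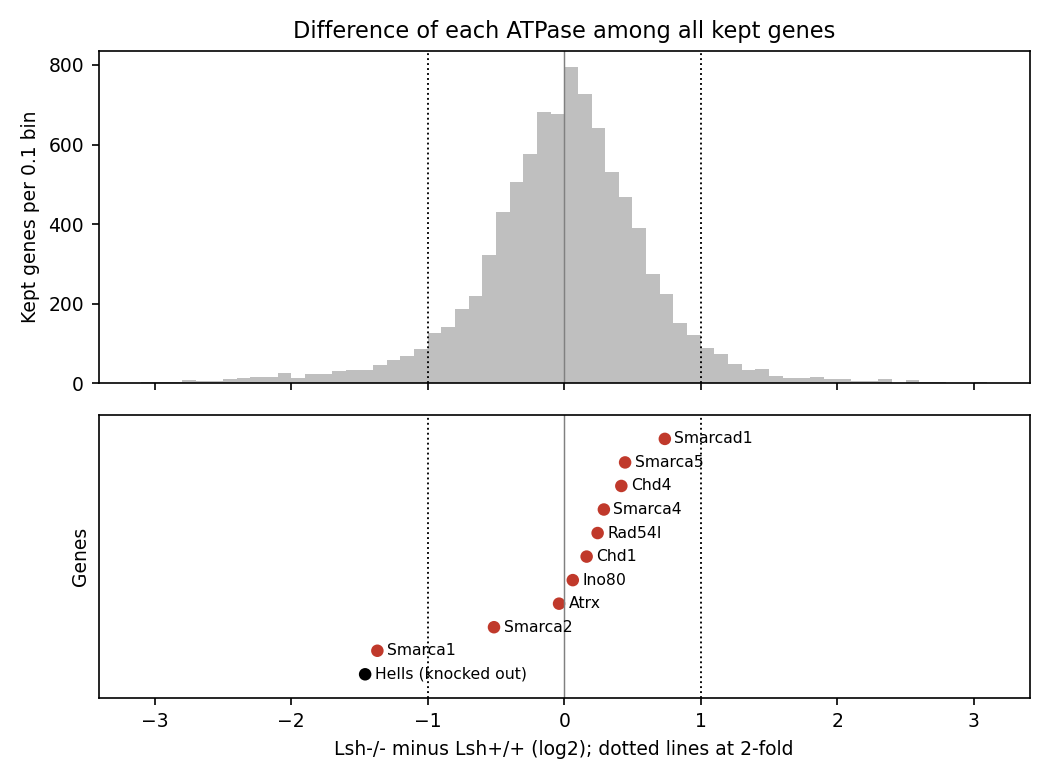
Histogram of the differences (Lsh-/- minus Lsh+/+, log2) of all kept genes, with the 10 ATPases and Hells placed on the same axis below it and dotted lines at 2-fold. Differences beyond 3 in either direction are outside the plot. Smarca1, at -1.37, lies near Hells in the lower tail, and the other 9 lie in the body of the distribution.

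The ISWI motors went in opposite directions. Smarca1, which encodes SNF2L, the motor of the NURF complex, read 7.29 in Lsh+/+ and 5.92 in Lsh-/-. This is a difference of -1.37, or 2.58-fold lower, and 313 of the kept genes (3.41%) were as low or lower. The knockout value remained 2.04 above the dimness limit, so the transcript was dimmer but well within the measured range. Smarca5, which encodes SNF2H, the widely expressed ISWI motor of the ACF, CHRAC and WICH complexes, read 6.45 in Lsh+/+ and 6.90 in Lsh-/-, a difference of 0.45 or 1.36-fold higher. Smarca5 was thus higher and Smarca1 lower on the same array, and the ratio of Smarca5 to Smarca1 was 3.52-fold greater in the knockout (1.81 on the log2 scale). A scaling that moves a whole array leaves this ratio as it is, but it shows unequal change and does not say which of these genes changed; scaled to the hybridisation controls, Smarca5 was at 0.01 and Smarca1 at -1.81. Smarca1 is X-linked, and the 252 kept genes of that chromosome had a median difference of 0.00.

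The SWI/SNF motors were also of opposite sign, but within 2-fold. Smarca4, which encodes BRG1, a motor that can drive both BAF and PBAF complexes, read 7.10 in Lsh+/+ and 7.39 in Lsh-/-, a difference of 0.29. Its 3 transcript rows held a single set of values and so count as 1 measurement. Smarca2, which encodes BRM, the alternative motor of BAF, read 6.63 in Lsh+/+ and 6.12 in Lsh-/-, a difference of -0.51 or 1.43-fold lower, with 16.5% of kept genes as low or lower. Its second row, for another transcript, read 6.14 and 5.58 and was lower by a similar amount (-0.56), though rows of a gene can share probes. The ratio of Smarca4 to Smarca2 was 1.75-fold greater in the knockout. With the array scaled to the hybridisation controls both genes were below 0, at -0.15 and -0.95.

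The start regions of these paralogs are shown because the study concerns cytosine methylation, which in mammals lies mostly at CpG, the base pair step that the capitals mark. Each is the 300 bases from 250 before to 50 after the annotated start (RefSeq, GRCm38.p6), read 5′ to 3′ on the strand of the gene. They are Smarca4 (chr9:21615919-21616218, plus strand), Smarca2 (chr19:26604910-26605209, plus strand), Smarca5 (chr8:80739410-80739709, minus strand) and Smarca1 (chrX:47892564-47892863, minus strand).
Smarca4: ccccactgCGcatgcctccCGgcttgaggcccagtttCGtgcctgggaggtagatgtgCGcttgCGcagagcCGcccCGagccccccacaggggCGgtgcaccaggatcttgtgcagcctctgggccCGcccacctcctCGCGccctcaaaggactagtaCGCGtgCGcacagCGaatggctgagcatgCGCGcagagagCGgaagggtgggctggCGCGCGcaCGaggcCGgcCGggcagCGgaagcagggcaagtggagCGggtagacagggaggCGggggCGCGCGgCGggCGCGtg
Smarca2: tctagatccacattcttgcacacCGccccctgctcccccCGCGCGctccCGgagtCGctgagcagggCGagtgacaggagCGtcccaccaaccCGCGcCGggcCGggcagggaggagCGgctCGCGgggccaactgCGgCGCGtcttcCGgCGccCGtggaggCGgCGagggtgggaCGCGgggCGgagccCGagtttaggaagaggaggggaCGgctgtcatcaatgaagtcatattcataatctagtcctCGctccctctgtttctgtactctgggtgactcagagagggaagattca
Smarca5: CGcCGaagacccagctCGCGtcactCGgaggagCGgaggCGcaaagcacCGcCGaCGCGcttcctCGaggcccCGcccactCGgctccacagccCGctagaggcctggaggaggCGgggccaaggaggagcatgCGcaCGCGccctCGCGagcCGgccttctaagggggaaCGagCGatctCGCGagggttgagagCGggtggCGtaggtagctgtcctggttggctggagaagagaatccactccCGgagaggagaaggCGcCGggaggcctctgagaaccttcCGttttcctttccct
Smarca1: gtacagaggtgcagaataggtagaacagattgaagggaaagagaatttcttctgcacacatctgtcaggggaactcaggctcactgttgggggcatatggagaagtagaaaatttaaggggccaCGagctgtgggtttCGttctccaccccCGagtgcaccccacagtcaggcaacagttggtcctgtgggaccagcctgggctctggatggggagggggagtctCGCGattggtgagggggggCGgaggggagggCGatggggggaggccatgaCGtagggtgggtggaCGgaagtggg
Smarca1 held 9 CpGs, against 33 for Smarca4, 29 for Smarca2 and 32 for Smarca5. The first 124 bases of the Smarca1 window hold no CpG, and its 9 CpGs lie in the part nearer the start.

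In all, 9 of the 10 ATPases had an entry in the RefSeq promoter table, in 12 windows, since Chd4, Smarcad1 and Rad54l each had 2 starts; no window of Chd1 is shown. Their CpG counts ran from 9 for Smarca1 and 11 for Atrx, both X-linked, to 33 for Smarca4, and Hells had 34. Over all 32851 windows of this length the quartiles were 3, 7 and 20 CpGs. Fewer CpGs than in the Smarca1 window were found in 54.2% of all windows, and fewer than in the Smarca4 window in 91.4%. Hells and Smarca1, with differences of -1.46 and -1.37, thus stood at opposite ends of this CpG range, and no relation of CpG content to expression was computed. The GC box letters GGGCGG, counted on both strands and overlapping the CpGs, were in 9 of the 12 windows and in 35.7% of all windows. These 9 windows belong to 7 genes, since both of the overlapping windows of Chd4 and of Rad54l are among them. The letters CCAAT, on both strands, were in 8 of the 12, which include both of the overlapping windows of Chd4 and of Rad54l, and in 37.4% of all. TATAAA and CACGTG, on both strands, were in none of the 12, beside 13.6% and 7.15% of all windows. A match of letters is not a binding site, and a missing one says nothing about a factor.

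**Figure D3:**
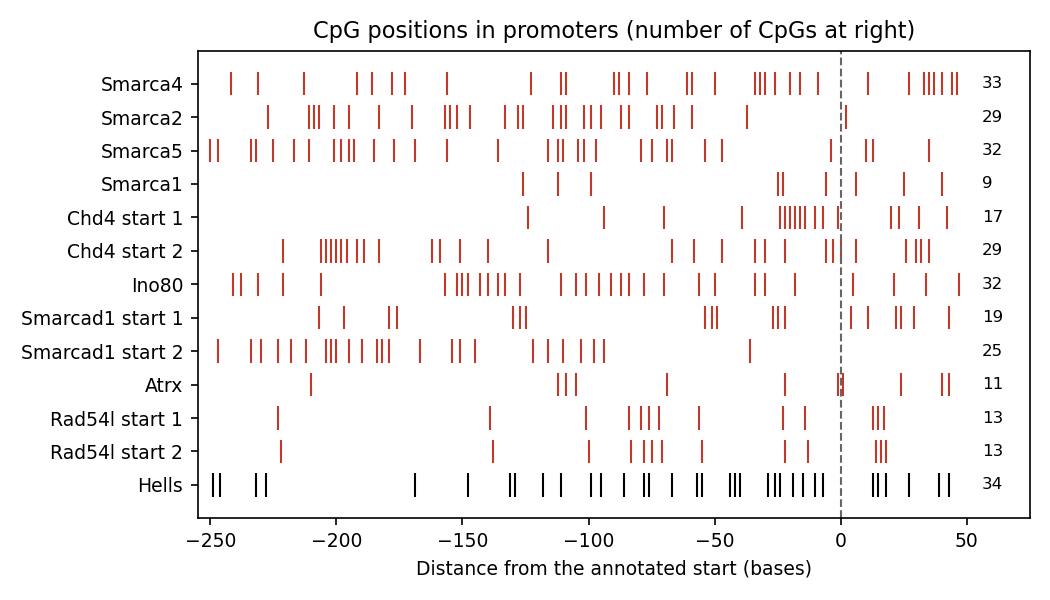
Position of each CpG in the RefSeq window of 9 ATPases and Hells, in bases from the annotated start (dashed line), 1 tick per CpG with their number at the right. Smarca1 has the fewest, 9, and Hells the most, 34; Chd4, Smarcad1 and Rad54l are drawn once for each annotated start.

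The CHD remodellers Chd4 and Chd1, named for the chromodomains with which they read histone tails, were within 2-fold. Chd4, which encodes Mi-2beta, the main motor of NuRD, read 5.38 in Lsh+/+ and 5.80 in Lsh-/-, a difference of 0.42. Chd1, which works at transcribed genes, read 4.73 and 4.89, a difference of 0.16. Both were slightly brighter in the knockout as deposited, and both were below 0 after scaling to the hybridisation controls (-0.02 and -0.27). Chd3, another NuRD motor and no member of the list, read 6.56 and 7.18, a difference of 0.63. Chd2, a relative of Chd1, read 6.40 and 6.06, a difference of -0.33. Of the further genes grouped here only by a Chd name, Chd1l was at 0.84, Chd6 at 0.60, Chd8 at 0.46 and Chd9 at -0.11. Chd5 lay below the limit on both arrays. Chd6 read 3.61 and 4.22, so that its Lsh+/+ value was below the limit.

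Smarcad1 had the highest difference of the 10. It encodes a remodeller that has been linked to the upkeep of heterochromatin after replication and to the resection of broken DNA ends. It read 5.07 in Lsh+/+ and 5.81 in Lsh-/-, a difference of 0.74 or 1.67-fold higher, and 814 kept genes (8.88%) were as high or higher. It was above 0 under every one of the 7 alternatives that gave it a value, from 0.30 to 0.74. Not all of these could have changed its sign. Smarcad1 has 1 row, so the mean over rows and the absence of a limit left it at 0.74. A pseudocount shrinks a difference but keeps its sign. Smarcad1 and Chd4 both lie on chromosome 6, whose 449 kept genes had a median difference of 0.28. With that median subtracted, Smarcad1 was at 0.45 and Chd4 at 0.13.

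Ino80, the motor of a complex that repositions nucleosomes and handles the histone variant H2A.Z, and Atrx, which loads histone H3.3 into repeats together with Daxx, both lay near the dimness limit. Ino80 read 4.22 in Lsh+/+ and 4.28 in Lsh-/-, a difference of 0.06. Atrx read 4.02 and 3.99, a difference of -0.04, with values only 0.17 and 0.10 above the limit. Without replicates these small differences do not show that either gene was equal in both cultures.

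Rad54l encodes the mouse RAD54, a motor of DNA repair by homologous recombination. It read 5.81 in Lsh+/+ and 6.05 in Lsh-/-, a difference of 0.24 (-0.19 scaled to the hybridisation controls), the same in all 3 of its rows, which held 1 set of values. Its paralog Rad54b lay below the limit on both arrays, at 2.82 and 3.54. The genes of homologous recombination had 8 of 11 members kept, none past 2-fold, 7 above 0 and a median of 0.29, and this became 0.05 with the chromosome medians subtracted. Brca2, a tumour suppressor of the same repair pathway, was the highest at 0.77. Genes of DNA replication had a median of 0.54 over 13 kept members, 3 of them 2-fold higher, beside 4.65% of all kept genes: the replication licensing factor Cdc6 (4.34 and 5.57), the helicase subunit Mcm6 (7.40 and 8.60) and the ribonucleotide reductase subunit Rrm2 (6.42 and 7.46). With the chromosome medians subtracted their median was 0.70 and 2 were past 2-fold. After scaling to the hybridisation controls their median was 0.10 and none was past 2-fold. The part of this replication shift in the Rad54l value was not tested.

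**Figure D4:**
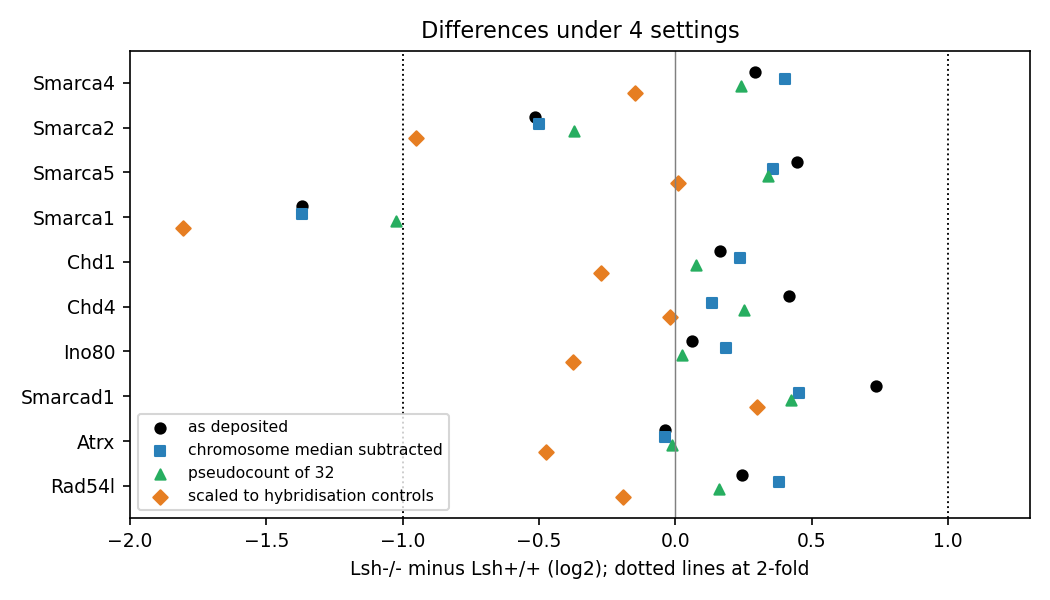
Difference of each of the 10 ATPases (Lsh-/- minus Lsh+/+, log2) as deposited, with the median of its chromosome subtracted, after adding 32 to each linear value (the pseudocount), and with the Lsh-/- array scaled to the hybridisation controls; dotted lines mark 2-fold. Smarca1 is past 2-fold lower in all 4, from -1.81 to -1.03, while Smarca4, Chd1, Chd4, Ino80 and Rad54l change sign with the scaling to the controls. For Smarca1 the chromosome median is 0.00, so that setting repeats the deposited value, and the scaling to the controls can only lower it.

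The other SNF2-type ATPases and the subunits that these motors work with were counted in 6 lists, of which 62 genes were kept. Of these, 3 (4.84%) were past 2-fold, all higher, against 4.65% higher and 6.06% lower among all kept genes. Together with the recombination and replication genes above, 6 of 83 kept genes (7.23%) were past 2-fold, all higher. After scaling to the hybridisation controls none of the 83 was 2-fold higher and 1, Mta3, was 2-fold lower, against 1.83% higher and 14.7% lower among all kept genes under that scaling. Of 21 further SNF2-type ATPases 13 were kept, with a median of 0.35 (-0.09 after that scaling), 10 of them above 0. Of the rest, 5 lay below the limit on both arrays. No row was matched to the other 3 (Chd7, Srcap and Ercc6), so they were not measured here. Btaf1, which strips the TATA-binding protein from DNA, was alone past 2-fold, at 5.35 in Lsh+/+ and 6.44 in Lsh-/- (2.13-fold higher). Hltf, a replication fork remodeller, read 6.41 and 6.05, and Smarcal1, which anneals DNA at stalled forks, 4.61 and 4.87, both within 2-fold.

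The other subunits of the BAF and PBAF complexes had 19 of 23 members kept, with 14 above 0 and a median of 0.24 (-0.20 after scaling to the hybridisation controls). Of the rest, 2 lay below the limit on both arrays and 2 had no matched row. Smarce1, the BAF57 subunit that binds DNA through an HMG domain, was alone past 2-fold, reading 5.63 in Lsh+/+ and 7.02 in Lsh-/-, or 2.63-fold higher. The partners of the ISWI motors had 7 of 9 members kept, none past 2-fold, and a median of -0.06. Rsf1, which pairs with Smarca5, was the highest of them at 0.69, and Baz2b, which carries a bromodomain, the lowest at -0.26. Baz2b read 3.87 and 3.61, with its Lsh-/- value below the limit. No ISWI partner thus came as far from 0 as Smarca1 did.

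The NuRD subunits beside Chd4 had 10 of 11 members kept, none past 2-fold, 7 below 0 and a median of -0.15. No row was matched to the remaining subunit, Hdac1, so it was not measured here. The deacetylase Hdac2 was the highest, at 7.81 in Lsh+/+ and 8.47 in Lsh-/-, and the scaffold subunit Mta3 the lowest, at 7.38 and 6.62. Of the Atrx partners Daxx read 7.15 and 7.21, and H3f3b, a gene for histone H3.3, read 9.64 and 10.6, a difference of 0.998 that was just under 2-fold. The INO80 complex had 11 of 13 members kept and a median of 0.11. No row was matched to the other 2, Ruvbl1 and Mcrs1, so they were not measured here. Ino80c was alone past 2-fold by its measured difference of 1.43 (2.55 and 3.97), but its Lsh+/+ value lay below the limit, so that it was at least 1.08-fold higher over it.

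**Figure D5:**
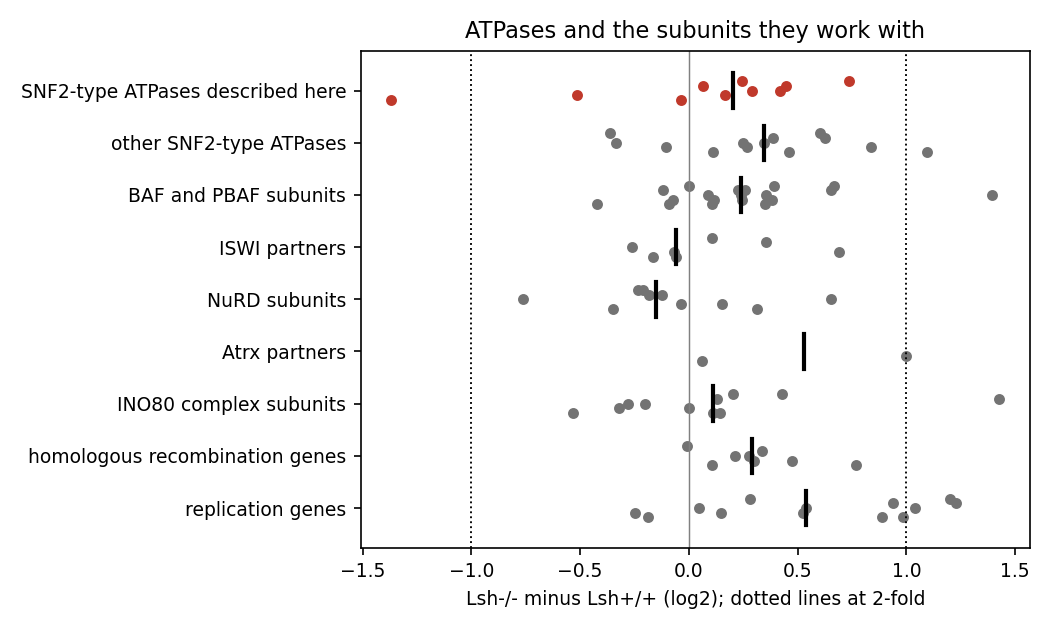
Difference (Lsh-/- minus Lsh+/+, log2) of every kept gene of the 10 ATPases (coloured) and of 8 related lists, 1 point per gene, with the list median as a bar and dotted lines at 2-fold. Smarca1 is the only point beyond the lower line, 6 genes lie beyond the upper one, and the medians run from -0.15 to 0.54. Scaling to the hybridisation controls lowers each value of the Lsh-/- array by 0.44.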

How the data were processed

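RNA from 1 Lsh+/+ and 1 Lsh-/- culture was measured on 1 array each. The authors deposited a table of log2 values made with RMA (background correction, quantile normalization and a median-polish summary of probes), per the submitters' processing notes. Neither the RMA settings nor the grouping of probes nor the genome build was given in the sources used here. The log2 scale was read from the range, 0.89 to 13.1. The 23950 rows held 64 control probe sets and 23886 RefSeq transcripts. Of these transcripts, 21230 matched exactly 1 gene of the GRCm38.p6 gene table without version. The other 2656 matched no gene or more than 1. A gene was represented by whichever of its rows had the highest mean; 9169 of 16579 genes were kept. With 1 array a genotype the number of arrays limits the precision and no test was made. Levels of different genes were not ranked, since each has its own probes; marker levels were summed on the linear scale only to compare the arrays.

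The members and lists were chosen with earlier results of these data known. Every member and Hells were named, and of each other list the kept genes past 2-fold, or otherwise the one farthest from 0 in each direction. Rad54b, Hltf and Smarcal1 were named in any case. The further genes with a Chd name and the marker genes were named after their values were seen. Not every gene that the rule takes is reported. No gene was named for a pattern like a member's, since 2 arrays give 1 difference per gene. Alternatives were the mean over rows, quantile normalization, loess (span 0.3), no limit and an upper-quartile limit, scaling to the hybridisation controls, a pseudocount of 32, chromosome medians subtracted, and 1.5-fold and 3-fold thresholds. The counting was tested on simulated data. Python 3.11.15, numpy 2.4.6, pandas 2.3.3, statsmodels 0.14.6 and matplotlib 3.10.9 were used.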

Additional observations from a re-analysis of the deposited data

How the results depend on the processing

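No paired analysis was possible because only 1 array was made from each genotype; leaving out replicates was impossible for that reason. Smarca1 was the only member past 2-fold under the 8 alternatives that kept the 2-fold threshold, at -1.03 to -1.81. Several of these could not bring it within 2-fold. Smarca1 has 1 row, and its chromosome had a median of 0.00. The mean over rows, the changed limits and the chromosome medians therefore left its value at -1.37. Scaling to the hybridisation controls could only lower it. At 1.5-fold 2 members passed and at 3-fold 0, beside 27.5% and 4.05% of all kept genes. The median of the members, 0.20, became -0.23 with scaling to the hybridisation controls. An upper-quartile limit kept 5 members. The count of related-list genes past 2-fold, 6, became 1 with scaling to the hybridisation controls, 1 with the pseudocount, 19 at 1.5-fold and 0 at 3-fold. The 1 under that scaling was Mta3, which was lower and not among the 6. Under the other alternatives at 2-fold the count ran from 4 (upper-quartile limit) to 8 (quantile normalization). The 982 kept genes past 2-fold became 539 with the upper-quartile limit, 293 with the pseudocount, 1517 with the scaling, 2521 at 1.5-fold and 371 at 3-fold; the share of higher genes among them, 43.4%, was 11.1% with the scaling. Hells was at -0.96, under 2-fold, with the pseudocount. Counting against genes above the limit on both arrays was chosen after seeing the data. A stricter limit or threshold necessarily counts fewer genes; the cause of the shift of the hybridisation controls was not tested.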
